A study of Homo sapiens with 5 samples.

Results

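Chemokine-high and chemokine-zero cells were SW480 cells recovered from zebrafish xenografts at 4 days post injection (dpi) and selected on their own RNA for 5 chemokines, CXCL1, CXCL2, CXCL3, CXCL8 and CCL20. The score of a cell was the sum of the UMIs (unique molecular identifiers, each standing for 1 captured RNA molecule) of these genes per 10000 UMIs of the cell, with spike-in RNA left out. Within each plate the cells in the top 15% of the score formed the high group, and the cells with a score of 0 formed the zero group. Of the 293 cells at 4 dpi, 44 were high, 176 were zero and 73 lay between the groups. Library 10 gave 20 high and 74 zero cells of 132, and library 11 gave 24 high and 102 zero cells of 161. Because the groups were chosen by these 5 genes, the values of the 5 genes describe the choice, and they were left out of the comparison of all other genes.

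SW480 is an established colorectal cancer line, here transfected with GFP and implanted in zebrafish larvae, which at this age rely on innate immunity. Tumors were dissected at 1 dpi and at 4 dpi, pooled, dissociated with liberase in medium that held an anoikis inhibitor, and live cells without DAPI stain were placed 1 per well in plates of 384 wells for SORT-seq. The study treated the cells of 1 dpi as the full set of subclones and those of 4 dpi as the survivors of clearance. Each plate is 1 library and counts here as 1 sample, with libraries 6, 7 and 8 from 1 dpi and libraries 10 and 11 from 4 dpi. The sources do not say whether the plates of a time came from separate pools of tumors, so p-values measure the spread between plates, which may be technical. Libraries 6, 7 and 10 shared one flow cell, and libraries 8 and 11 the other.

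The whole series held 826 cells with more than 2000 genes and less than 25% of UMIs on mitochondrial genes. In libraries 10 and 11, human genes had 4678213 and 4487175 UMIs, of which 3961242 and 3789632 lay in these cells. Libraries 6, 7 and 8 had 7632953, 5556237 and 4922188 human UMIs and 228, 142 and 163 cells. All 5 plates use the same 384 well numbers, which mark wells and not cells.

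CXCL8 and its close relatives CXCL1, CXCL2 and CXCL3 are secreted ligands of the receptor CXCR2 that attract neutrophils, and CCL20 attracts dendritic cells and lymphocytes through CCR6. Epithelial cells induce these genes through the transcription factor NF-kB when cytokines or microbial products reach them, often together with AP-1 factors downstream of MAP kinases. The response is short because NF-kB also induces its own inhibitors, MAP kinase phosphatases remove the kinase signal, and proteins of the ZFP36 family speed the decay of the chemokine mRNAs through AU-rich elements.

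The promoters of the 5 score genes are shown because these genes were selected together, and those of NFKBIA, TNFAIP3 and EGR1 because these genes moved with them. Each line gives the 150 bases upstream of the RefSeq start in GRCh38.p14, 5′ to 3′ on the strand of the gene. Capitals mark matches to a kappaB motif (GGNNNTTCC), an AP-1 motif (TGANTCA) or the CArG box that serum response factor binds, each searched on both strands. A match describes letters only, not binding. CXCL8 lies at chr4:73740419-73740568, CXCL1 at chr4:73869243-73869392, CCL20 at chr2:227813692-227813841, TNFAIP3 at chr6:137867109-137867258 and EGR1 at chr5:138465329-138465478, all on the plus strand. CXCL2 at chr4:74099196-74099345, CXCL3 at chr4:74038690-74038839 and NFKBIA at chr14:35404750-35404899 are on the minus strand.
CXCL8: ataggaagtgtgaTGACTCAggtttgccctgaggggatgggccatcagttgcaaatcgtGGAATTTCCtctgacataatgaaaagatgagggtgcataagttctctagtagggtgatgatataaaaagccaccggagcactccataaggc
CXCL1: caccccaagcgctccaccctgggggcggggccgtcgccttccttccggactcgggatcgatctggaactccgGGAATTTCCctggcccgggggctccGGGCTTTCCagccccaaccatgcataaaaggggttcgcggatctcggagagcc
CXCL2: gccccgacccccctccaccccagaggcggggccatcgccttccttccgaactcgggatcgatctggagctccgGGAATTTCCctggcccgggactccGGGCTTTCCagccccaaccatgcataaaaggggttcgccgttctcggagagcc
CXCL3: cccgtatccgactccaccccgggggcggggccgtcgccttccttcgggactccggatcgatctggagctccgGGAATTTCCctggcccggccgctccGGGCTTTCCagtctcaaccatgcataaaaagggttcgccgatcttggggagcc
CCL20: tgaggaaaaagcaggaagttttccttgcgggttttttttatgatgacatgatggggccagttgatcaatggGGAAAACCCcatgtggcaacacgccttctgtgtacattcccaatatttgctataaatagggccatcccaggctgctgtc
NFKBIA: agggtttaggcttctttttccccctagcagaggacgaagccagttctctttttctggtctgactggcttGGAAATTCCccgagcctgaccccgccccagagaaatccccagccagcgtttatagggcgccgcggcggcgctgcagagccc
TNFAIP3: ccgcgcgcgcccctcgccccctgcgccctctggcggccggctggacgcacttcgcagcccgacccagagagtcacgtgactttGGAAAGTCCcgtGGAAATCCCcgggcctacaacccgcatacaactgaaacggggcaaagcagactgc
EGR1: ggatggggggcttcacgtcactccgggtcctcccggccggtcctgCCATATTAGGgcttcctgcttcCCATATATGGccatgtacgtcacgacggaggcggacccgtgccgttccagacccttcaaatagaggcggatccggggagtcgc

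All 5 score genes held a kappaB match in the 300 bases around the start that were searched, 250 before and 50 after it. Over 27305 promoters of the same length, 20.1% held one, as did 23.7% of 8328 matched promoters of the genes tested below and 36 of 133 (27.1%) of those called higher in high cells. The match of CXCL8 began at position -91, and the AP-1 match, present among the score genes in CXCL8 alone, at -137. CXCL1, CXCL2 and CXCL3 each held 2 kappaB matches, and their stretches were nearly alike throughout, as are their mRNAs. How reads were divided among these 3 paralogs is uncertain, so their separate counts are too. TNFAIP3 held 2 kappaB matches at -67 and -55, and NFKBIA held 2, at -81 and, outside the stretch shown, at -242. EGR1 held no kappaB match but 2 CArG boxes at -105 and -83, against 1.29% of all promoters with any. The CArG box was found in only 2 of 31 matched promoters of the AP-1 and other immediate early lists, and not in those of FOS, JUNB, ATF3, NR4A1, BTG2 and DUSP1, which also rose. The AP-1 motif was found in 7.76% of all promoters.

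The score was steep within the high group. The cell just inside the threshold had 2.99 score UMIs per 10000 in library 10 (11 UMIs), and the cell just outside had 2.53 (8 UMIs). In library 11 these values were 1.85 (3 UMIs) and 1.75 (1 UMI), so the boundary there rested on few molecules. The median score of the high cells was 7.98 in library 10 and 5.87 in library 11, and the highest scores were 54.1 and 159. High cells held 91.6% of the 972 score UMIs of library 10 and 91.5% of the 655 of library 11. Of the cells between the groups, 19 of 38 and 24 of 35 had a single score UMI.

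**Figure D1:**
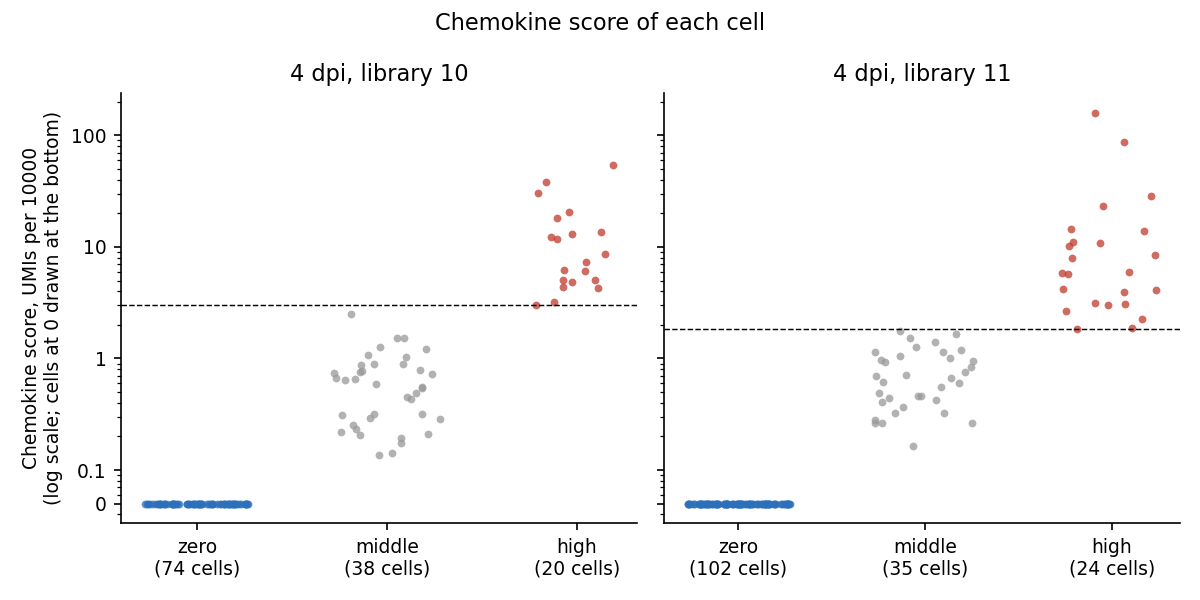
Chemokine score of each 4 dpi cell on a log scale, in UMIs per 10000, by group and library. Each point is 1 cell, cells at 0 are drawn at the bottom, and the dashed line marks the lowest high cell, 2.99 in library 10 and 1.85 in library 11.

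CXCL8 gave the largest part of the score, 350 of 890 score UMIs in the high cells of library 10 and 319 of 599 in those of library 11. In high cells it reached 483 UMIs per 1000000 UMIs of the group in library 10 and 544 in library 11, with a UMI in 19 of 20 and 21 of 24 cells. CXCL1 reached 272 and 118 per 1000000, with a UMI in 13 and 11 cells. CXCL3 reached 188 and 107, and CXCL2 134 and 64.8. The first of the plates had more of these 3 paralogs, and CXCL8 differed little between the plates. CCL20 reached 152 and 188 per 1000000 but in few cells, with a UMI in 7 of 20 and 8 of 24. A single cell held 57.3% of the CCL20 UMIs of all cells of library 10, and another held 52.8% of those of library 11.

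Because high cells were chosen by the sum of the 5 genes, the number of these genes found in each describes the choice. Of the 44 high cells, 6 had UMIs of 1 score gene, 10 of 2, 11 of 3, 13 of 4 and 4 of all 5. CXCL8 was the most abundant alone in 25 of them, CXCL3 in 7, CXCL1 in 5, CXCL2 in 3 and CCL20 in 3, and 1 cell had a tie. To test a chemokine on cells not chosen by it, the groups were made again from the other 4 genes each time. CXCL8 was then at 441 CPM (counts per 1000000 summed UMIs, scaled by TMM) in high against 10.3 in zero cells of library 10, and 497 against 15.6 in library 11. Its log2 change was 5.18 (SE 0.21), with an adjusted p of 6.9e-20 in edgeR's quasi-likelihood test, where 2.89% of genes were called higher. CCL20 was at 151 against 2.63 and 169 against 4.43 CPM, a log2 change of 5.45 (SE 0.34, adjusted p = 4.3e-10, 2.09% called higher). CXCL8 and CCL20, which are no near copies of the others, therefore had higher sums in cells chosen without them. CCL20 had a UMI in only 7 of 20 and 7 of 24 of these high cells. In zero cells it had one in 4 of 78 and 4 of 106. A single high cell held 71 of its 110 UMIs in library 10, and another 67 of 96 in library 11. The change of CCL20 thus rests on few cells. The log2 changes of CXCL1, CXCL2 and CXCL3 were 6.15, 6.00 and 5.30 (adjusted p = 2.6e-10, 1.1e-07 and 2.6e-08), beside 1.31%, 1.38% and 0.908% of genes called higher. These 3 may share reads.

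Median depth differed between the groups in opposite directions on the plates. By means over cells, averaged over both plates, high cells were the deeper group, as given at the end. The median UMIs per cell were 26933.5 in high and 22148.5 in zero cells of library 10, but 16160.5 and 18087.5 in library 11. Cells between the groups were deeper, with 36829 and 24797. High cells had a median of 6032 genes against 5102 in library 10 and 4855 against 4804.5 in library 11. This was higher in 5 of 5 plates of both times (exact two-sided permutation of signs, p = 0.0625, the smallest that 5 plates allow). With each cell thinned to 10000 UMIs, the medians were 3494 and 3454 in library 10 and 3539 and 3541.5 in library 11. Shallower cells were left out of this, 3 high and 10 zero in library 10 and 5 high and 26 zero in library 11. The mitochondrial share was 12.3% and 14.2% in library 10 and 14.1% and 11.6% in library 11. ERCC spike-ins took 0.917% and 1.10%, and 2.23% and 2.24%. The part of depth in the gene results was not tested beyond the fits on thinned and on deep cells.

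The cells carried the RNA of colorectal epithelium. All 8 of its markers had UMIs, with KRT8 the most abundant, and they summed to 5203 UMIs per 1000000 in high and 5026 in zero cells of library 10, and to 4453 and 5223 in library 11. Of 16 leukocyte markers, 6 were listed in all plates and 10, among them PTPRC, MPO and CD3E, were not. The 6, led by CD68, summed to 10 UMIs (13.8 per 1000000) in high and 8 (4.47) in zero cells of library 10, and to 8 (13.6) and 13 (5.69) in library 11. Endothelial markers (3 of 6 listed, PECAM1 the most abundant) had 1 and 2 UMIs in library 10 and 1 and 7 in library 11, and red blood cell markers (1 of 6, HBA1) had 1, 5, 0 and 8. Fibroblast markers (2 of 7 listed, LUM the more abundant) summed to 63.4 and 35.2 per 1000000 in library 10 and 42.6 and 27.1 in library 11. Reads were mapped to a human reference only, so these markers cannot show whether zebrafish host cells were present. The part of these low marker levels in the results was not tested. Wells that failed the filter still held 77 score UMIs in library 10, or 1.08 per 10000 against 2.45 in cells, and 58 in library 11, or 0.837 against 1.73.

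Against zero cells of the same plates, high cells had more RNA of most AP-1 and other immediate early genes tested and of single NF-kB inhibitors, phosphatases and mRNA decay factors such as NFKBIA, DUSP1 and ZFP36, and less of the stress pseudokinase gene TRIB3. In edgeR's quasi-likelihood test on UMIs summed per plate and group, with the plate as a block and Benjamini-Hochberg adjustment, 169 of 10831 genes were called higher (1.56%) and 32 lower (0.295%) at an adjusted p under 0.05. At an unadjusted p under 0.05 there were 1416. Both plates moved the same way in 200 of the 201 called genes. Without library 11 the test called 99 higher and 14 lower, and without library 10 it called 121 and 25. Without library 6 of 1 dpi, which bears on the spread and on which genes are tested (10617 without it), it called 99 and 11. Of 73 called genes named by rule, 28 were called in each of the 5 fits that left out 1 plate, 26 of them higher and 2 lower. The groups were made from chemokine RNA, so genes that vary with it over cells for any reason can appear here.

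NFKBIA and TNFAIP3, inhibitors that NF-kB induces, were among the largest rises. NFKBIA, which encodes the inhibitor IkB alpha, was at 269 CPM in high and 28.6 in zero cells of library 10, and at 294 and 40.3 in library 11. High cells were well above zero cells on both plates, with a log2 change of 3.03 (SE 0.26, adjusted p = 1.5e-06 in edgeR). TNFAIP3, whose product A20 edits ubiquitin chains on signaling adaptors, was at 87.2 and 13.7 CPM in library 10 and at 157 and 12.7 in library 11. Its log2 change was 3.19 (SE 0.26, adjusted p = 1.1e-06). BIRC3, a ubiquitin ligase of the tumor necrosis factor receptor complex, rose from 16 to 85.8 and from 18.7 to 93.6 CPM, a log2 change of 2.37 (adjusted p = 6.3e-06). NFKBIE, another inhibitor of the IkB family, rose by 2.31 (adjusted p = 0.00253), but without library 11 its change was 1.82 with an adjusted p of 0.188. Of 15 tested inhibitors and feedback genes, 6 were called higher and 0 lower, and 3 without library 11. Their median log2 change was 1.08, beside -0.01 for all genes tested.

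Of the subunits of NF-kB, 3 were called higher. RELB, of the alternative pathway, was at 55.4 and 19.4 CPM in library 10 and 86.8 and 22.5 in library 11, a log2 change of 1.75 (SE 0.27, adjusted p = 0.00151). REL rose by 1.32 (adjusted p = 0.0104) and NFKB2 by 1.30 (adjusted p = 0.0182). NFKB1, which encodes p50, was at 52.6 and 33.7 CPM in library 10 and at 74.9 and 50.1 in library 11, and its log2 change of 0.61 (SE 0.27) missed the threshold (adjusted p = 0.337). Over all 5, the median was 1.30 and the lowest of the list 0.05. The calls of RELB and REL held without library 10 but not without library 11. Without library 11 the adjusted p was 0.0816 for RELB, 0.193 for REL and 0.111 for NFKB2, and for NFKB2 it was 0.138 without library 10. Of the 5 subunits, 0 were called by edgeR without library 11 and 2 without library 10.

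Some of these NF-kB results also changed when cells were thinned, which leaves fewer UMIs to test, and with the score. In the same cells thinned to 10000 UMIs, 0 of 5 subunits were called by edgeR (median 0.85), and 3 of 14 inhibitors and feedback genes (median 0.63). RELB was not called with the top 10% (1.52, adjusted p = 0.0701) or with equal weight per cell (0.98, 0.145). Groups chosen by CXCL8 alone had 221 zero cells at 4 dpi, against 176 before. Those zero cells can hold UMIs of the other score genes. With groups chosen by CXCL8 alone, NFKBIA had a log2 change of 2.56 and was called. TNFAIP3 had 1.23 (adjusted p = 0.0567), BIRC3 1.16 (0.198), NFKBIE 0.45 (0.920) and RELB 0.45 (0.892), and these 4 were not called. Of the inhibitors and feedback genes 1 of 15 was then called, and of the subunits 0 of 5 by edgeR, with medians of 0.51 and 0.45. Of other targets 4 of 35 were called, with a median of 0.49, among them IER3 at 2.53 (adjusted p = 3.6e-05). Over all genes this score gave 51 called higher and 6 lower. With CXCL8 left out of the score some values were smaller and others larger. IER3 went from 2.52 to 1.76, RIPK2 from 1.42 to 1.21, ELF3 from 1.54 to 1.48 and TNFAIP2 from 4.58 to 4.51, all still called. TNFAIP3 then had 3.52 and RELB 2.15, and 8 of 15 inhibitors and feedback genes (median 1.41), 4 of 5 subunits (median 1.47) and 10 of 34 other targets were called, of 328 called higher and 75 lower over all genes.

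Of 33 other NF-kB targets, 7 were called higher and 0 lower, with a median of 0.66. Without library 10, 3 were higher and the median was 0.15. IER3, an early gene that protects from cell death, rose from 63.4 to 366 and from 72.2 to 410 CPM, a log2 change of 2.52 (adjusted p = 1.5e-05). ELF3, an epithelial ETS factor, rose by 1.54 (adjusted p = 0.00143), and RIPK2, the kinase of NOD receptors, by 1.42 (adjusted p = 0.00296). TNFAIP2 was nearly absent from zero cells, with 0.571 and 0.849 CPM against 26.3 and 13.6, a log2 change of 4.58 (SE 0.95, adjusted p = 0.0160). Without library 10 its adjusted p was 0.214, and without library 6 it was 0.0583. ICAM1, a classical target that leukocytes bind, had 5 UMIs (3 of them in 1 cell) and 2 UMIs in high and zero cells of library 10 and 0 and 1 in library 11, too few to show a difference (log2 change 1.95, SE 1.16, adjusted p = 0.518).

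The receptors and adaptors upstream of NF-kB did not move as a group. Of 33 tested, 1 was called higher and 1 lower, with a median of 0.07. TICAM1, the adaptor TRIF of toll-like receptors, rose by 2.01 (adjusted p = 0.0161), with adjusted p of 0.140 without library 10 and 0.130 without library 11. RBCK1, part of the linear ubiquitin ligase, had a log2 change of -0.99 (adjusted p = 0.0113), and of -0.71 without library 11 (adjusted p = 0.232). Of other chemokines, 0 of 5 tested were called by edgeR, with a median of 0.51, and of chemokine receptors 0 of 2, with a median of 0.94. CXCR4 was at 26.3 and 2.86 CPM in library 10 and at 10.2 and 4.25 in library 11 (log2 change 2.25, SE 0.64, adjusted p = 0.0902). CX3CL1, a membrane-bound chemokine, was at 6.92 and 1.71 and at 5.11 and 3.40 CPM (adjusted p = 0.547). CKLF and CXCL16 had log2 changes of -0.54 and -0.83 (adjusted p = 0.482 and 0.613), and CXCR3 of -0.37 (adjusted p = 0.906).

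**Figure D2:**
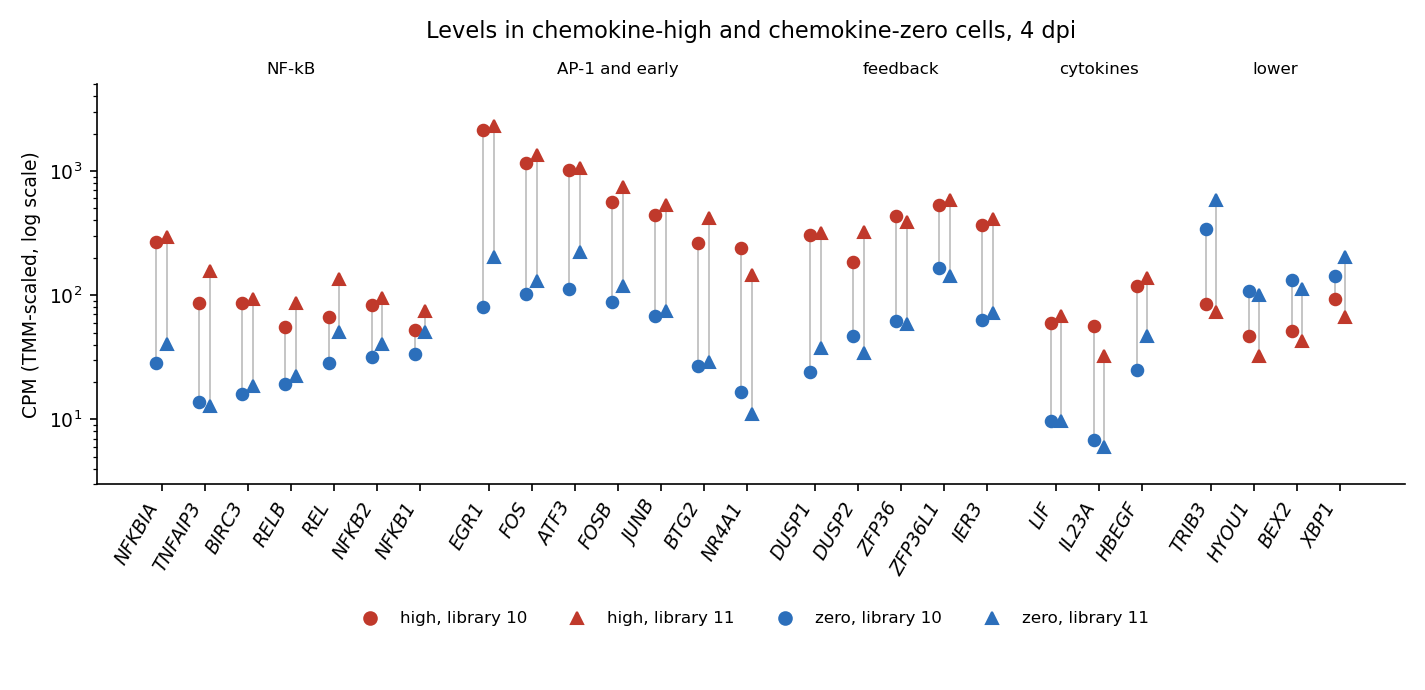
CPM (log scale) of genes by role in high (red) and zero (blue) cells of libraries 10 (circles) and 11 (triangles), joined per plate. NFKBIA lies at 269 against 28.6 CPM in library 10, NFKB1 at 52.6 against 33.7, and TRIB3 at 84.5 against 338.

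Among the cytokines, IL23A, the p19 subunit of interleukin 23, was at 56.8 and 6.85 CPM in library 10 and at 32.3 and 5.95 in library 11, a log2 change of 2.75 (SE 0.39, adjusted p = 0.000644). LIF, a cytokine of the interleukin 6 family, was at 59.5 and 9.71 CPM and at 68.1 and 9.77, a log2 change of 2.70 (SE 0.38, adjusted p = 0.000634). In library 11 a single cell held 60% of the LIF UMIs of the high cells, and in cells of at least 20000 UMIs the change of LIF was 0.62 (adjusted p = 0.697). These were the 2 of 10 tested cytokines called higher, and the list's median was 1.40, or 0.70 without library 11. HBEGF, a ligand of the EGF receptor, was called among 6 genes of that family, whose median was 0.51 (log2 change 1.85, adjusted p = 0.0144, and 1.53 with 0.133 without library 10). In the list of IL10 and STAT3 signaling, 2 of 10 were called higher, PIM3 (0.96, adjusted p = 0.0120) and IL6ST (0.84, adjusted p = 0.0254). PIM3 was not called without library 11 (adjusted p = 0.240), and IL6ST not without library 6, 10 or 11 (0.0760, 0.109 and 0.309). The median of that list was 0.29.

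AP-1 and other immediate early genes gave the largest share of called genes of any list of at least 10 genes. Of 10 AP-1 genes tested, 7 were called higher and 0 lower, with a median of 1.75, and 7 were called in each fit that left out 1 plate. With groups chosen by CXCL8 alone 5 of 11 were called, with a median of 0.81, and with CXCL8 left out of the score 7 of 11, with a median of 0.94. FOS, which pairs with JUN proteins in AP-1, was at 1149 CPM in high and 102 in zero cells of library 10, and at 1353 and 129 in library 11, a log2 change of 3.44 (SE 0.30, adjusted p = 2.1e-06). JUNB rose by 2.76, ATF3 by 2.68 and FOSB by 2.66 (adjusted p = 4.8e-06, 3.4e-05 and 0.000169). EGR1, a zinc finger factor that growth factors and stress induce, was at 2120 and 80 CPM in library 10 and at 2318 and 204 in library 11. Its log2 change was 4.07 (SE 0.30, adjusted p = 5.1e-07), and 3.50 without library 10 and 4.73 without library 11. With CXCL8 alone it was 1.82 (adjusted p = 0.0454). In library 10 a single high cell held 894 of the 1531 EGR1 UMIs of the group (58.4%).

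Of 32 other immediate early genes, 20 were called higher and 0 lower (12 higher without library 11), with a median of 1.44. With CXCL8 alone 13 were called (median 0.99), and with CXCL8 left out of the score 28 (median 1.24). More were called in the latter though the median was lower. EGR1 there had a smaller change of 3.14 but a smaller adjusted p of 3.5e-17 in edgeR. Counts of calls from different fits therefore do not rank the size of the changes. The nuclear receptor gene NR4A1 rose from 16.6 to 240 and from 11.0 to 146 CPM (log2 change 3.79, SE 0.46, adjusted p = 0.000131). BTG2, which restrains proliferation, rose from 26.8 to 264 and from 28.9 to 419 CPM (log2 change 3.60, SE 0.25, adjusted p = 3.3e-07). EGR4 and EGR3 rose by 3.46 and 3.02 (adjusted p = 1.5e-06 and 2.7e-05). All of these were called in each fit that left out 1 plate, but EGR4 was not called with CXCL8 alone (1.99, adjusted p = 0.173). Among called genes of at least 20 CPM in the higher group, the matrix protein gene THBS1 completed the 10 largest rises at 3.03. Its error was wide (SE 0.74, adjusted p = 0.0418). Without library 10 or 11 its change was 3.05 or 2.97, and it was not called. Of the 169 genes called higher, 78 were in any of the 39 lists, 27 in these 2 lists and 16 in the lists of NF-kB subunits, inhibitors and feedback genes, and other targets.

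Some genes whose products end such signals were higher too, though most members of their lists were not called. DUSP1, a phosphatase of p38 and JNK kinases, was at 303 and 24 CPM in library 10 and at 315 and 37.8 in library 11, a log2 change of 3.32 (SE 0.25, adjusted p = 5.4e-07). DUSP2 rose by 2.62 (adjusted p = 0.000165, 3.21 without library 10 and 1.99 without library 11). With DUSP10 (1.86) and DUSP8 (1.13), 5 of 19 MAPK feedback genes were called higher, 3 without library 10, where DUSP10 and DUSP8 had adjusted p of 0.0572 and 0.351. Without library 6, DUSP8 had 0.0764. The median was 0.58. ZFP36, which binds AU-rich mRNAs and speeds their decay, rose from 62.2 to 438 and from 58.6 to 390 CPM (log2 change 2.77, SE 0.27, adjusted p = 6.5e-06). Its relative ZFP36L1 rose by 1.87 (adjusted p = 6.8e-07). ZFP36L2 rose by 0.75 (adjusted p = 0.0275). Without library 6, 10 or 11 its change was much the same (0.75, 0.72 and 0.77) but was not called (adjusted p = 0.0854, 0.183 and 0.180). These were 3 of 12 AU-rich decay factors tested, with a median of 0.10.

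Fewer genes were lower. TRIB3, a pseudokinase that ATF4 induces under amino acid and endoplasmic reticulum (ER) stress, was at 84.5 CPM in high and 338 in zero cells of library 10, and at 73.2 and 585 in library 11. It fell by 2.48 on the log2 scale (SE 0.21, adjusted p = 1.6e-06), by 3.01 without library 10 and by 2.00 without library 11. With groups chosen by CXCL8 alone, TRIB3 was not called (log2 change -0.62, adjusted p = 0.173). Cells between the groups resembled zero cells here, with 387 and 453 UMIs per 1000000. BEX2 fell by 1.38 (adjusted p = 0.00151) from 131 to 51.2 and from 112 to 42.5 CPM. It was not called with the top 10% (-0.97, adjusted p = 0.205) or with CXCL8 alone (-0.74, 0.289). Nor was it called in cells thinned after or before grouping (-0.97 and -1.01, 0.192 and 0.195). HYOU1, an ER chaperone, fell by 1.38 (adjusted p = 0.00570), but without library 11 the adjusted p was 0.102. Among called genes of at least 20 CPM in the higher group, the 10 largest falls also held 7 other genes. These were ITGA3 (-2.35), PPIC (-2.23), MIR4697HG (-1.88), UNC5B (-1.78), MIR17HG (-1.74), GPC1 (-1.71) and SEC24D (-1.43), with adjusted p from 0.0236 to 0.0473. Each was at 16.6 CPM or less in high cells. None of these 7 was called in every fit that left out 1 plate. Without library 11 the adjusted p was 0.343 for PPIC, 0.101 for MIR4697HG, 0.197 for UNC5B, 0.177 for MIR17HG, 0.403 for GPC1 and 0.171 for SEC24D, and without library 10 it was 0.573 for ITGA3. Without library 6 it was 0.0771 for MIR17HG and 0.113 for ITGA3.

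Few stress genes were called. Of 21 ATF4 targets, 2 were called lower, TRIB3 and ASNS (-0.66, adjusted p = 0.0473, and 0.621 without library 11), 1 was higher, ATF3, and the median was -0.15. Without library 11, 1 was lower. With CXCL8 left out of the score 7 were lower and 2 higher, with a median of -0.62, and with CXCL8 alone 0 were lower by edgeR and 1 higher, with a median of 0.11. Of 18 ER chaperones, HYOU1 and SEL1L (-0.81, adjusted p = 0.0498, and 0.234 without library 11) were called lower and 0 higher, with a median of -0.53, and without library 11 edgeR called 0. In the list of CEBP and stress factors, XBP1 fell by 1.08 (adjusted p = 0.0275, and 0.527 without library 11) and BHLHE40 rose by 1.55 (adjusted p = 0.000846), of 12 with a median of -0.12. Of 15 heat shock genes, DNAJB1 was called higher (0.99, adjusted p = 0.0254) with a median of 0.45. Without library 10 edgeR called 0 of these 15 and DNAJB1 had an adjusted p of 0.563, and without library 11 it called 5 higher. SLC30A1, a zinc exporter, was called among 6 metallothionein and zinc genes (1.87, adjusted p = 0.0132, and 0.6 without library 11), with a median of 0.97. That median was -0.29 without library 11 and 1.70, with 3 called, without library 10.

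Calls of cell cycle genes depended on single plates. Those of G2 and mitosis genes depended on libraries 10 and 6, and that of the S phase gene GMNN on library 11. Of 54 genes of G2 and mitosis, 6 were called higher and 0 lower, with a median of 0.42. Without library 10 the test called 0 of the 54 and the median was -0.12, and without library 11 it called 14 with a median of 0.85. Without library 6 of 1 dpi the test called 2 of the 54, with a median of 0.41. In the same cells thinned to 10000 UMIs, 1 of 49 tested was called and the median was -0.11, so the sign of the median is not stable. HMMR, a spindle protein, was at 205 and 42.8 CPM in library 10 but at 73.2 and 43.3 in library 11 (log2 change 1.58, adjusted p = 0.0125, and 0.508 without library 10). ANLN, at 395 and 160 in library 10 and 201 and 132 in library 11, showed the same order (adjusted p = 0.0236, and 0.444 without library 10). KIF20B and CDCA2 had adjusted p of 0.0148 and 0.0255, and 0.385 and 0.589 without library 10. Of 39 S phase genes 1 was called, GMNN (0.97, adjusted p = 0.0160, and 0.352 without library 11), with a median of 0.22, and of 19 G1 genes 1, CDKN1B (0.81, adjusted p = 0.0294, and 0.0519 and 0.470 without libraries 10 and 11), with a median of 0.27. Per cell, G2 and mitosis genes had medians of 23.5 UMIs per 10000 in high and 18.2 in zero cells of library 10, and 24.1 and 18 in library 11. S phase genes had 30.7 and 20.4, and 26.9 and 17.3. Both were higher in high cells in 5 of 5 plates (exact permutation of signs, p = 0.0625 for each), the smallest p possible.

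Survival and differentiation genes gave single calls. PMAIP1, the BH3 protein NOXA, rose by 1.69 (adjusted p = 0.00188), and the anti-apoptotic MCL1 by 1.14 (adjusted p = 0.0114), or by 0.67 without library 11 (adjusted p = 0.392). These were 2 of 17 apoptosis regulators, with a median of 0.22. MDM2, the ligase of p53, rose by 1.16 (adjusted p = 0.0102, and 0.260 without library 11), 1 of 17 p53 targets with a median of 0.30. HES1, a Notch target, rose by 1.29 (adjusted p = 0.00116), and NRARP by 1.43 (adjusted p = 0.00382, and 0.107 without library 10), 2 of 16 Notch genes with a median of 0.40. In library 10, 1 high cell held 59% of the HES1 UMIs of the high cells. HES1 was not called with the top 10% (0.32, adjusted p = 0.813), with CXCL8 alone (0.25, 0.928) or in cells thinned after or before grouping (0.63 and 0.52, 0.408 and 0.559). ID2, an inhibitor of differentiation, rose by 1.33 (adjusted p = 0.000169), 1 of 17 in its list with a median of 0.12. HLA-B rose by 1.00 (adjusted p = 0.0113, and 0.116 and 0.105 without libraries 10 and 11), 1 of 11 class I genes with a median of -0.19. BAMBI rose by 0.80 (adjusted p = 0.0188, and 0.458 without library 11), 1 of 20 Wnt genes with a median of -0.03.

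Of 40 matrix and invasion genes, TGFBI (1.51) and SNAI2 (1.08) were called higher and ITGA3 and S100A11 (-0.55) lower, with a median of -0.02. Without library 11, TGFBI, SNAI2 and S100A11 had adjusted p of 0.0965, 0.160 and 0.245, and without library 10 of 0.320, 0.0806 and 0.0941. VIM, a mesenchymal filament, was at 65.1 and 93.7 CPM in library 10 and at 97 and 123 in library 11 (log2 change -0.43, SE 0.23, adjusted p = 0.474). A single cell held 40 of the 57 VIM UMIs of the high cells of library 11 (70.2%). Of 14 YAP targets 3 were higher, with a median of 0.57: CYR61 (2.93, adjusted p = 0.000674, and 0.101 without library 11), GADD45A (1.05, adjusted p = 0.000644) and FOSL1 (1.02, adjusted p = 0.00699, and 0.264 without library 11). CYR61, GADD45A and FOSL1 are also members of the AP-1 or other immediate early lists and are counted there too. Without library 11 the test called 1 of the 14. Of 10 keratins, KRT81 was called lower (-3.84, adjusted p = 0.0404, and 0.188 and 0.234 without libraries 10 and 11) at 13.7 CPM or less in zero cells, with a median of 0.10. Among 8 nuclear long RNAs NEAT1 was called higher (0.87, adjusted p = 0.00325, and 0.146 without library 11), with a median of -0.08.

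At 4 dpi edgeR called 0 genes in 7 further lists. These were 21 interferon-stimulated genes (median 0.18, with IFITM2 at -0.05), 21 hypoxia genes (0.02, with LDHA at 0.02 and SLC2A1 at 0.06), 43 large ribosomal proteins (-0.06, with RPL41 at 0.06 and RPL10 at -0.17) and 15 mitochondrial genes (-0.11, with MT-ND4 at -0.18). The others were 10 secretory and differentiation genes (0.71, but 0.28 without library 10 and 0.24 without library 11, with PHGR1 at 0.20 and TFF3 at 0.22), 16 NRF2 and iron genes (-0.08, with FTH1 at -0.28 and FTL at -0.22) and 24 genes of cholesterol and fatty acid synthesis (0.07, with SCD at -0.29 and CYP51A1 at 0.01). Over all genes the count at an unadjusted p under 0.05 was 1416, and without library 11 edgeR called 7 mitochondrial genes lower. With CXCL8 left out of the score, 1 interferon-stimulated gene and 1 gene of cholesterol and fatty acid synthesis were called higher. Of the latter list, 1 gene was also called higher without library 7 or 8. The medians of several lists changed sign when 1 plate was left out, beside those of G2 and mitosis genes and metallothioneins given above. Without library 10 they were -0.00 for p53 targets, -0.13 for keratins, 0.13 for mitochondrial genes, -0.03 for receptors and adaptors upstream of NF-kB and -0.06 for TGF-beta and ID genes. Without library 11 they were -0.18 for interferon-stimulated genes, -0.15 for hypoxia genes, -0.09 for cholesterol and fatty acid synthesis, 0.11 for Wnt genes and 0.09 for CEBP and stress factors. Without library 6 the median of the other chemokines was -0.54, with 3 tested, and without library 7 that of hypoxia genes was -0.03. Others changed in size without library 10, to 0.01 for heat shock genes and 0.05 for apoptosis regulators. They went to -0.44 for ATF4 targets, -0.23 for matrix and invasion genes and 0.87 for MAPK feedback genes. Without library 11 the medians were 0.14 for Notch genes, 0.03 for G1 genes and -0.07 for ATF4 targets. Of 24 tested genes that the study names for single SW480 cells, HES1 alone was called, and the median was -0.05. SOX9 had the next lowest adjusted p, with 194 and 131 CPM in library 10 and 158 and 93.4 in library 11 (log2 change 0.66, adjusted p = 0.0810). APCDD1 had a log2 change of -0.50 (adjusted p = 0.318), NOTCH1 of -0.62 (0.339) and PROX1 of 0.41 (0.271). NOTCH3 (8 UMIs) and DLL1 (30 UMIs) were below the filter on low counts.

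**Figure D3:**
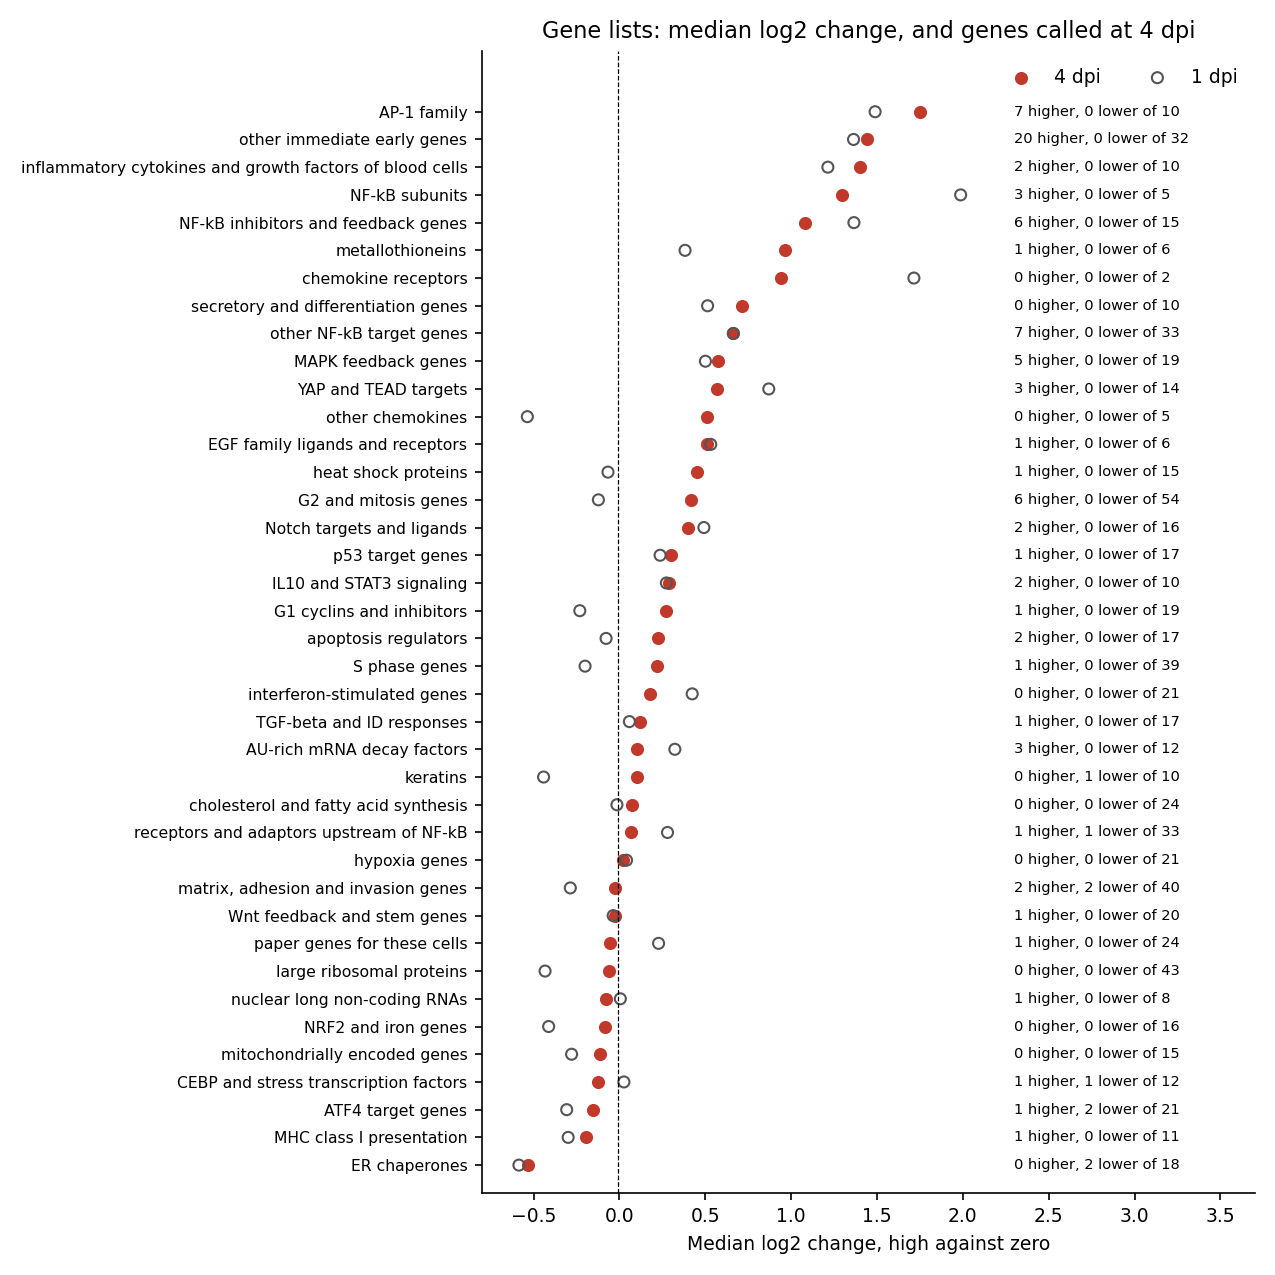
Median log2 change, high against zero, of the tested genes of each list at 4 dpi (filled) and 1 dpi (open), with the numbers called at 4 dpi. AP-1 genes have the highest median at 4 dpi, 1.75, ER chaperones the lowest, -0.53, and the dashed line is the median of all genes, -0.01.

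For NFKBIA, EGR1, FOS and TNFAIP3, more high than zero cells had a UMI on both plates. After thinning to 10000 UMIs, NFKBIA was seen in 94.1% of 17 high and 17.2% of 64 zero cells of library 10, and in 78.9% of 19 and 26.3% of 76 in library 11. Without thinning these shares were 95% and 36.5%, and 87.5% and 48%. EGR1 was seen in 82.4% and 25%, and in 94.7% and 39.5%, and FOS in 94.1% and 34.4%, and in 94.7% and 42.1%, of thinned cells. TNFAIP3 was seen in 47.1% and 10.9%, and in 47.4% and 11.8%. Zero cells therefore did not lack these RNAs, and some high cells had no UMI of TNFAIP3. In library 11 the shares and sums of some other genes parted. TRIB3 was seen in 79.2% of high and 71.6% of zero cells of library 11 before thinning, though its sum was lower in high cells, and after thinning in 52.6% and 61.8%. NEAT1 was seen in 78.9% and 88.2% of thinned cells there, and NFKB1 in 36.8% and 44.7%, though their sums were higher in high cells. In thinned cells of library 10 the shares followed the sums, with 41.2% and 68.8% for TRIB3, 100% and 76.6% for NEAT1 and 52.9% and 23.4% for NFKB1. For NFKBIA and EGR1, cells between the groups were nearer to zero cells. NFKBIA was at 40.7 and 59.9 UMIs per 1000000 there, against 268 and 295 in high and 28 and 41.6 in zero cells of libraries 10 and 11. EGR1 was at 345 and 186 there, against 2111 and 2323 in high and 78.3 and 210 in zero cells.

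Immediate early RNA and chemokine RNA were not found in the same cells throughout. Summed over the AP-1 and other immediate early lists, the median was 124 UMIs per 10000 in high and 25.9 in zero cells of library 10, and 163 and 33.1 in library 11. Taking the 15% of cells of each plate with the most of this RNA, 8 of 20 high cells of library 10 and 14 of 24 of library 11 were among them, together 22 of 44 (50%). Of zero cells 13 of 176 (7.39%) were among them, and of cells between the groups 9 of 73 (12.3%). With all these cells left out, a choice made after the data had been seen, 22 high and 163 zero cells were compared and 107 genes were called higher and 34 lower. Of the 73 called genes named by rule, 41 were still called in the same direction.

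Without these cells some NF-kB genes were as high and others were not. NFKBIA had a log2 change of 3.10, TNFAIP3 of 3.86 and RELB of 2.10, and all 3 were called. BIRC3 went from 2.37 to 2.08 and IER3 from 2.52 to 2.01, and both were called, while NFKBIE went from 2.31 to 1.38 (adjusted p = 0.339) and RIPK2 from 1.42 to 1.15 (0.0791) and were not. Of the NF-kB inhibitors and feedback genes 3 of 15 were called, against 6 over all cells, with a median of 0.88, and of other targets 6 of 30, with a median of 0.44. Of genes in other lists, IL23A had 2.89, PMAIP1 1.70 and ID2 1.67, and these were called. EGR1 and FOS, on which this choice of cells partly rests, still had 3.23 and 2.60 and were called. LIF had 0.33 (adjusted p = 0.920), HES1 0.56 (0.574), HMMR 0.10 (0.958), NEAT1 0.36 (0.533), FOSL1 0.41 (0.538), DNAJB1 0.16 (0.852) and CYR61 1.87 (0.314), and none of them was called. Of the G2 and mitosis list 1 gene was called, with a median of -0.06, and of the NF-kB subunits 3 of 5, with a median of 1.28.

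**Figure D4:**
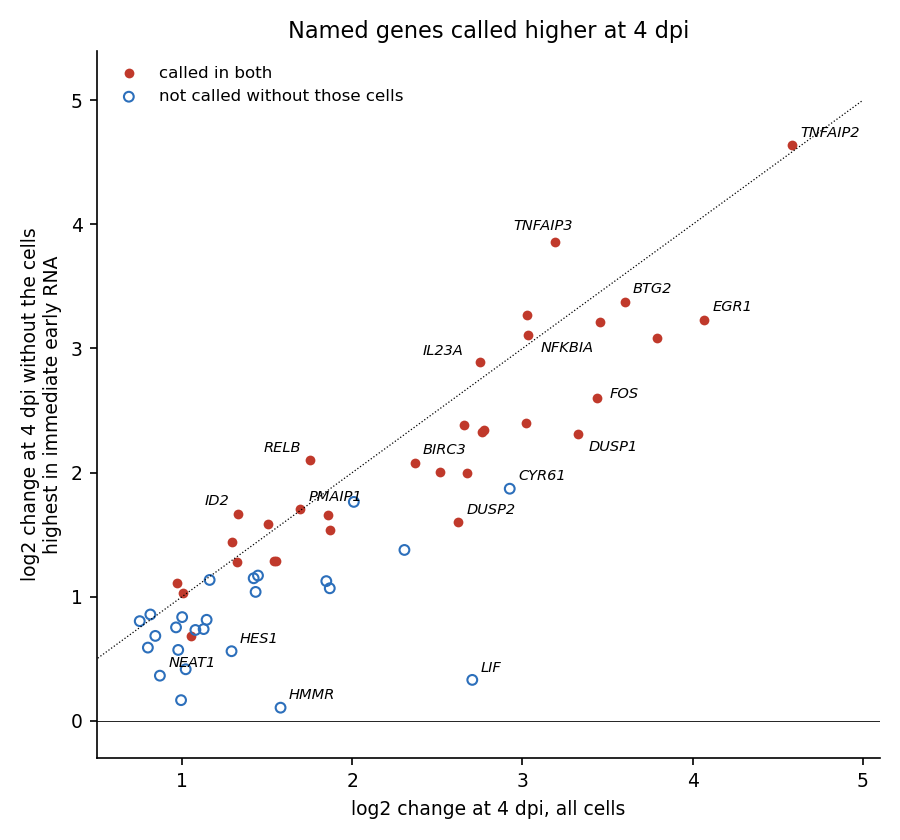
Log2 change at 4 dpi of named genes called higher, over all cells (horizontal) and without the cells highest in immediate early RNA (vertical). Filled points were called in both and open points over all cells only, the dotted line marks equal values, and LIF falls from 2.70 to 0.33 while TNFAIP3 goes from 3.19 to 3.86.

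The same contrast at 1 dpi used 79 high and 329 zero cells of 533. The lowest scores of high cells there were 0.655, 2.02 and 0.830 in libraries 6, 7 and 8, mostly below the 2.99 and 1.85 of 4 dpi, so the high groups of the times are not alike. At 1 dpi, with 3 plates, 939 genes were called higher (8.67%) and 858 lower (7.92%). Of the 169 genes higher at 4 dpi, 130 (76.9%) were also called higher at 1 dpi, which is 13.8% of the 939, and 1 was called lower, NEAT1. Of the 32 lower at 4 dpi, 15 were also lower at 1 dpi. NFKBIA, TNFAIP3 and BIRC3 had log2 changes of 3.19, 2.99 and 2.37 at 1 dpi, close to those at 4 dpi. Ribosomal proteins differed in their counts, with 41 of 43 called lower at 1 dpi (median -0.43) and 0 at 4 dpi by edgeR, but the difference between the times was called for none of them.

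The difference between the times was itself tested as an interaction, and 10 of 10831 genes (0.0923%) were called, 7 with a larger and 3 with a smaller value at 4 dpi, against 1335 at an unadjusted p under 0.05. DUSP1 rose by 3.32 at 4 dpi and 1.59 at 1 dpi, a difference of 1.74 (SE 0.32, adjusted p = 0.0489). ZFP36L1 rose by 1.87 and 0.83, a difference of 1.04 (adjusted p = 0.0402). NEAT1, a nuclear RNA that scaffolds paraspeckles, rose by 0.87 at 4 dpi and fell by 0.52 at 1 dpi (adjusted p = 0.0104 for the difference). TRIB3 fell by 2.48 and 0.78 at 4 and 1 dpi (adjusted p = 0.0175 for the difference). EGR1, with a difference of 1.69 (SE 0.36), just missed the threshold (adjusted p = 0.0929). Without library 6 the interaction was called for 0 genes by edgeR, and without library 10, 11, 7 or 8 for 34, 43, 15 or 11, so these 10 calls depend on single plates.

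**Figure D5:**
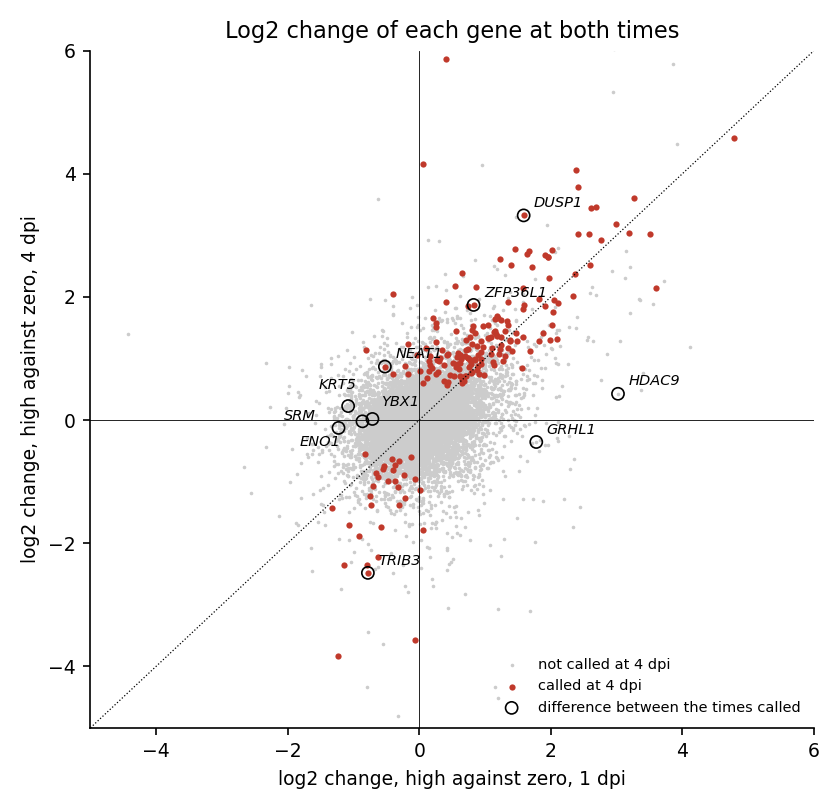
Log2 change, high against zero, of each gene at 1 dpi (horizontal) and 4 dpi (vertical). Red points were called at 4 dpi, circles mark the 10 genes whose difference between the times was called, and DUSP1 (1.59 and 3.32) lies above the dotted line of equal values while HDAC9 (3.02 and 0.43) lies below.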

How the data were processed

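SW480 cells from zebrafish xenografts were profiled by SORT-seq on 3 plates at 1 dpi and 2 plates at 4 dpi. The values deposited by the authors are raw counts (UMIs of a gene in a well) and were read unchanged. The submitters' processing notes name BWA and hg38, each with a version not given in the sources used here. Genes listed in all 5 plates were kept (15323, with 57 ERCC spike-ins), then those seen in at least 10 wells (15028 human genes), and a cell was a well above 2000 genes and under 25% of UMIs on mitochondrial genes. ERCC counts were left out of cell totals. FACS placed 1 cell per well, no doublet caller was run, and wells with more cells were not looked for.

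Cells were scored and grouped within each plate, with the bottom 40% in place of cells at 0 if fewer than 10 cells were at 0, which did not occur. UMIs were summed per plate and group (10 sums) and tested with edgeR 4.0.16 in R 4.3.3 (quasi-likelihood, two-sided, TMM, filterByExpr, Benjamini-Hochberg over 10831 genes, threshold 0.05). The design had a block per plate and the contrasts of 4 dpi, of 1 dpi and of their difference, since 2 plates alone leave 1 residual degree of freedom. The 5 score genes were removed after library sizes were set. The block pairs the groups because both come from the same plate. The fit had 3 residual degrees of freedom and 14.28 prior ones. It was run on simulated sums with the real library sizes and 200 genes changed by 1.5 on the log2 scale. Of these 93% were called, and 1.06% of calls were unchanged genes. The simulation gave all genes the same spread, all plates the same levels, and no single cells that dominate a group. It therefore does not show how the fit behaves where those occur.

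Members and the 39 gene lists were chosen with earlier results of these data known. Named genes were the 10 largest rises and 10 largest falls among called genes of at least 20 CPM in the higher group with both plates moving the same way, up to 4 called genes of each list (the 2 most abundant where none was called), the score genes, NFKBIA, TNFAIP3, NFKB1, RELB, ICAM1, CX3CL1, VIM and genes the study names for these cells. Genes in more than one list (45) count in each. Values of some single genes that the rule names are not reported. Medians per cell were compared over plates by exact permutation of signs. Promoter sequences are from RefSeq (GRCh38.p14), matched by symbol. Alternatives were DESeq2 1.42.0 and its size factors, no filter on low counts, plates of 4 dpi alone, no plate block, each plate left out, other score thresholds and score genes, other filters on cells, thinned or deep cells, genes of either 4 dpi plate and equal weight per cell. Added after the data had been seen were ERCC left out of the cell filter, the highest-scoring cell of each plate left out, and the cells highest in immediate early RNA left out. Python 3.11.15, numpy 2.4.6, pandas 2.3.3 and matplotlib 3.10.9 were used.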

Additional observations from a re-analysis of the deposited data

Results flagged for a closer look

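For 10 genes the change between high and zero cells differed between 4 and 1 dpi by the test of that difference in edgeR (adjusted p under 0.05), which is why they are listed. High groups at 1 dpi had lower score thresholds, and the part of this in the differences was not tested. The difference of the log2 change, 4 dpi less 1 dpi, was 1.74 for DUSP1, 1.04 for ZFP36L1, 1.39 for NEAT1 and -1.70 for TRIB3. The other 6 genes lie outside the rule for named genes and were chosen after their values were seen. HDAC9, a histone deacetylase, differed by -2.60, from a log2 change of 3.02 at 1 dpi to 0.43 at 4 dpi, and GRHL1, an epithelial transcription factor, by -2.14, from 1.78 to -0.36. Both were higher in high cells at 1 dpi only by their own tests. The basal keratin KRT5 differed by 1.31, the spermidine synthase gene SRM by 1.10, the glycolytic ENO1 by 0.84 and the RNA-binding YBX1 by 0.73, and these 4 were lower in high cells at 1 dpi (log2 changes of -1.08, -1.23, -0.86 and -0.71) and near 0 at 4 dpi. Over 23 alternatives these 10 differences kept their sign, and NEAT1 was called in 19 of them, KRT5 and TRIB3 in 18, ENO1 in 14, ZFP36L1 in 13, DUSP1, HDAC9 and GRHL1 in 11, YBX1 in 9 and SRM in 8. None was called without library 6 of 1 dpi. Not all kept their size. With a score of CXCL8 alone the difference of TRIB3 was -0.11 (adjusted p = 0.931 in edgeR). Without the cells highest in immediate early RNA, NEAT1 had 0.67 and KRT5 0.56.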

How the results depend on the processing

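The 73 called named genes kept their direction under all 25 alternatives in which they were tested, except SEC24D (0.10 with a score of CXCL8 alone, adjusted p = 0.981) and IL6ST (-0.38 with CXCL8 alone, adjusted p = 0.838, and -0.10 when cells were thinned to 10000 UMIs and then grouped, adjusted p = 0.969). Of 3831 comparisons of a single-gene value with an alternative, over all contrasts, 3205 stayed on the same side of the threshold, 604 lost the call and 19 gained it. A change of sign was counted only where a call was involved, and values that were not called, such as that of IFITM2, also changed sign. Each fit estimates its own spread, so a count of calls does not measure the size of the changes. The cause of each shift below was not tested.

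Genes called higher at 4 dpi (169) numbered 105 with DESeq2, 282 with no filter on low counts, 59 with the top 10%, 51 with CXCL8 alone, 328 with the score without CXCL8, 45 with a mitochondrial maximum of 15% (27 high cells), 95 in the same cells thinned, 86 thinned and then grouped, 107 without the cells highest in immediate early RNA, and 99 to 187 with 1 plate left out. Genes called lower (32) numbered 10, 112, 13, 6, 75, 10, 7 and 17 under the first 8 of these, 20 with the bottom 40%, and 11 to 32 with 1 plate left out. The share of calls that were higher was 84.1%, and 71.6% with no filter. At 1 dpi (1797 called) DESeq2 called 764, the top 10% 846, CXCL8 alone 310, the mitochondrial maximum 877, the thinned cells 786 and 235, the fit without early cells 229, and fits with 1 plate left out 719 to 2040. The difference between the times (10 called) gave 4 with DESeq2, 201 with no filter, 2 with no replicate block, 42 with the top 10%, 3 with the bottom 40%, 5 with CXCL8 alone, 88 without CXCL8, 1 in cells of at least 20000 UMIs, 24 thinned, 61 with equal weight per cell, 3 without the highest-scoring cells, and 0 to 43 with 1 plate left out. With no replicate block 125 genes were called higher and 22 lower at 4 dpi.

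Each left-out score gene was called in every alternative run. Over both plates of 4 dpi, the mean ratio of high to zero cells was 1.05 for UMIs (1.30 with means over cells), 1.10 for genes (0.900 with the top 10%), 1.01 for genes after thinning (0.982 and 0.985 with the top 10% and 25%), 0.915 for ERCC (1.05 with the top 10%), 1.53 for S phase RNA (1.14 with means, 1.58 and 1.36 with the top 10% and 25%), 1.31 for G2 and mitosis RNA (1.26 and 1.21) and 4.87 for immediate early RNA (3.48 with means, 5.08 and 3.91). With 20 and 24 high cells, low genes such as ICAM1 are beyond the depth of these plates.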
